A study of Mus musculus with 11 samples.

Results

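The alpha2delta subunits (Cacna2d1, Cacna2d2, Cacna2d3 and Cacna2d4) and the thrombospondins (Thbs1, Thbs2, Thbs3 and Thbs4) were followed in bulk RNA sequencing of the anterior cingulate cortex (ACC), a prefrontal area, of mice trained to press a lever for food. The 8 genes were taken by symbol from a table of 14974 genes, and all 8 passed the filter on low values (a mean of at least 0.1 FPKM), as 14936 of the 14974 did. FPKM divide the fragments of a gene by its length and by the fragments of the library, so levels of different genes can be set side by side.

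All animals were adult wild-type C57BL/6 mice (C57BL/6J in the study's methods), 1 mouse per library, killed for microdissection of the ACC within 1 h after the last training day. Trained mice (n = 6: females 1, 2 and 3, males 12, 13 and 14) had learned to press for each reward. Untrained mice (n = 5: females 5, 6 and 17, males 10 and 16) were also food-restricted and spent the same time in the chambers. They were given their rewards freely. Both groups thus share the diet and the chamber. The comparison asks which transcripts differ with the lever-press training. The tissue is a whole dissected region: fewer cells of a type and less RNA per cell cannot be told apart, nor can the cells that made a transcript.

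Alpha2delta subunits are extracellular auxiliary proteins of voltage-gated calcium channels, which they bring to the cell surface and to presynaptic terminals. The product of Cacna2d1 is also the neuronal receptor of thrombospondins, large matrix proteins that astrocytes secrete and that promote the formation of excitatory synapses, and gabapentin, a drug that binds it, blocks that effect. Cacna2d2 encodes the other gabapentin-binding subunit, Cacna2d3 a subunit that gabapentin does not bind, and Cacna2d4 the subunit known from photoreceptor synapses of the retina. Thbs1 and Thbs2 encode the trimeric thrombospondins, also known as inhibitors of blood vessel growth. Thbs3 and Thbs4 encode pentameric ones known from bone, tendon and muscle as well as brain.

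The genes lie on different chromosomes of the mouse genome (mm10, gene models of GENCODE M21). Cacna2d1 spans chr5:15934691-16374511 on the plus strand, with 12416 bp of merged exons, the most among the 8 genes. Cacna2d2 spans chr9:107399612-107529343 (plus strand), Cacna2d3 chr14:28904943-29721864 (minus strand) and Cacna2d4 chr6:119236526-119352407 (plus strand). Thbs1 spans chr2:118111876-118127133 (plus strand), Thbs2 chr17:14665500-14694235 (minus strand), Thbs3 chr3:89215180-89226837 (plus strand) and Thbs4 chr13:92751590-92794818 (minus strand), with 3289 bp of exons. Exons of genes on the other strand overlap those of Thbs3 (Mtx1, 318 bp), Thbs1 (Gm29233, 208 bp) and Cacna2d2 (Gm17141, 82 bp). No source used here says whether the counting used the strand.

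Promoter sequences, 250 bases before to 50 after the gene start (RefSeq, GRCm38.p6), were matched for 6 of the 8 genes. Thbs1 and Cacna2d4 had no entry. They are shown for the pair of most expressed receptor genes and for Thbs2 and Thbs4, ligand genes with an even and an uneven level across libraries. Each runs 5′ to 3′ on the gene's strand. Capitals mark GGGCGG, the GC box, on either strand (CCGCCC on the other), and matches may overlap each other.
Cacna2d1, chr5:15934441-15934740, plus strand: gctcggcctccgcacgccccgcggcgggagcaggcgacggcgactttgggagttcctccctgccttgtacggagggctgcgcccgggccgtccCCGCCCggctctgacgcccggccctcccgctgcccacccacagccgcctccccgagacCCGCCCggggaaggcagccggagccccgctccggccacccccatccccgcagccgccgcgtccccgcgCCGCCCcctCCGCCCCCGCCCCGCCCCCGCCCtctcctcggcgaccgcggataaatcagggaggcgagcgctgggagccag
Cacna2d3, chr14:29721815-29722114, minus strand: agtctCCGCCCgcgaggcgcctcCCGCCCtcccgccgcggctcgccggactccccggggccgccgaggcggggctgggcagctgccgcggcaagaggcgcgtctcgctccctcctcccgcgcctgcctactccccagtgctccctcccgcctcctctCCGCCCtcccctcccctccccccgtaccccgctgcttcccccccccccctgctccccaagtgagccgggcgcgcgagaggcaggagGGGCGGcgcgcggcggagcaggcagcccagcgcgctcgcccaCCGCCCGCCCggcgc
Thbs2, chr17:14694213-14694512, minus strand: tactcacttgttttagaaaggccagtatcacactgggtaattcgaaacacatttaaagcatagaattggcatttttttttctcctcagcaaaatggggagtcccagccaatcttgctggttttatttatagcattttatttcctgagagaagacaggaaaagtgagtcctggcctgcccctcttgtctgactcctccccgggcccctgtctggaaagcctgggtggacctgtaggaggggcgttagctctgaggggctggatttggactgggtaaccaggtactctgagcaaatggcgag
Thbs4, chr13:92794769-92795068, minus strand: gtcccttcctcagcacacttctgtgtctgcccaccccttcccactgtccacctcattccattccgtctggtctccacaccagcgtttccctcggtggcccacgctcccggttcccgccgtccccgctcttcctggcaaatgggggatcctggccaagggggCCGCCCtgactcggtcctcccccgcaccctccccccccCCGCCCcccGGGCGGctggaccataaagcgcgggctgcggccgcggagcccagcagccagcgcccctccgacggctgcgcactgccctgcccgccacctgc

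The receptor promoters were rich in G and C: 80.0% of bases for Cacna2d1, 75.7% for Cacna2d2 and 81.3% for Cacna2d3, against a median of 52.7% over all 32851 promoters. Cacna2d1 held 7 GC boxes, Cacna2d3 6 and Cacna2d2 1. Of all promoters 35.7% held at least 1. Among the ligands, Thbs4 (72.0% G and C) held 3 and Thbs3 (59.0%) 1. Thbs2 (48.3%) held none but had 1 TATAAA on the other strand (TTTATA in the sequence shown). This motif was on either strand in 13.6% of all promoters. CCAAT, in 37.4% of all promoters, occurred 2 times in Thbs2 and 1 time in Thbs3, with both strands searched. The 3 sequences linked to activity-regulated transcription that were searched for, on both strands, were TGACGTCA (in 1.79% of all promoters), TGANTCA (7.81%) and the CArG box (1.63%). None was in the window of any of the 6 genes. These are matches of letters only.

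Cacna2d1 had the highest mean level in the ACC, 35.1 ± 9.14 FPKM (SD, n = 11), followed by Cacna2d3 (20.5 ± 0.857 FPKM) and Cacna2d2 (7.26 ± 0.370 FPKM). The ligands followed with Thbs3 at 2.82 ± 0.548 FPKM, Thbs2 at 1.59 ± 0.199 FPKM, Thbs4 at 1.45 ± 1.43 FPKM and Thbs1 at 0.532 ± 0.182 FPKM. Cacna2d4 was lowest at 0.471 ± 0.120 FPKM. The order down to Thbs2 held in all 11 libraries. Below it neighbours changed places: Thbs2 was above Thbs4 in 8 of 11 libraries, Thbs4 above Thbs1 in 8 and Thbs1 above Cacna2d4 in 7. Over all 11 libraries the SDs of these neighbours overlapped, and genes were not tested against each other. In females Thbs4 (1.09 to 5.20 FPKM) lay above Thbs1 (0.399 to 0.799 FPKM). In males the ranges overlapped (0.369 to 0.741 FPKM for Thbs4 and 0.200 to 0.772 FPKM for Thbs1). Summed over each family, the receptors made 61.7 ± 9.79 FPKM in trained mice and 65.2 ± 8.70 FPKM in untrained mice. The ligands made 6.66 ± 1.75 FPKM in trained mice and 6.06 ± 1.35 FPKM in untrained mice.

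**Figure D1:**
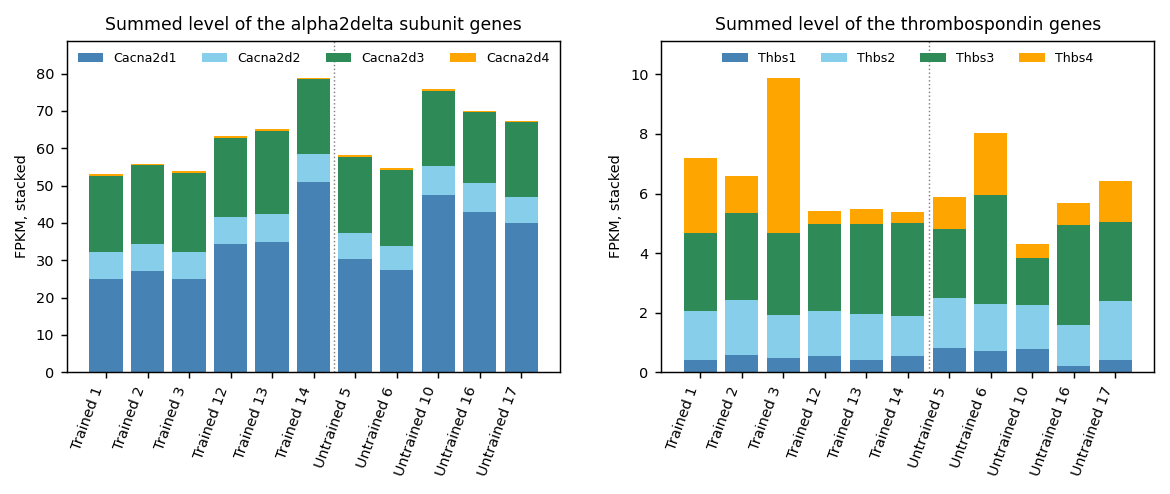
Stacked FPKM of the 4 alpha2delta subunit genes (left) and the 4 thrombospondin genes (right), 1 bar per library, with trained libraries left of the dotted line and untrained ones right of it. Cacna2d1 and Cacna2d3 make most of the receptor bar in every library, and Thbs4 alone makes 5.20 FPKM of the 9.89 FPKM of Trained 3.

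Within the receptor family Cacna2d1 made 52.5% ± 6.72 of the summed level in trained mice and 57.2% ± 5.65 in untrained mice (SD). Cacna2d3 made 34.6% ± 5.08 in trained and 31.1% ± 4.78 in untrained mice. Cacna2d2 made 12.01% ± 1.499 in trained and 11.2% ± 0.800 in untrained mice, and Cacna2d4 at most 1.41% in any library. Within the ligand family Thbs3 made 46.2% ± 12.01 in trained mice and 44.4% ± 8.69 in untrained mice. The share of Thbs4 was 6.85% to 52.6% in trained libraries and 10.5% to 25.7% in untrained ones. These shares are descriptions and were not tested.

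Depth, inferred from the spacing of the lowest FPKM values, was 17.7 to 27.1 M fragments in trained libraries, against 14.3 to 25.97 M in untrained ones, with the lowest in Untrained 17. The estimate is rough and assumes the exon lengths of GENCODE M21. With it, 35.6% (Untrained 6) to 53.8% (Trained 2) of the low values used lay within 0.1 of a whole number of fragments. The depth was chosen to bring these values near whole numbers, so this share is no separate check of it. Fragment numbers and counting errors given for genes rest on this estimate. Neuron markers were present throughout (Rbfox3, Snap25, Syt1, Slc17a7 and Gad1 summed to 2557 to 2845 FPKM in trained and 2541 to 3256 FPKM in untrained libraries). Choroid plexus markers stood apart in Untrained 10 (168 FPKM, at most 10.8 FPKM elsewhere). The library numbers in the labels fall in 2 ranges: 10 to 17 are the 5 males and the female Untrained 17, and 1 to 6 are all female. No label calls them a batch, yet the first principal component (31.5% of the variance) separated them. Sex and number range are thus largely confounded.

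No member passed the thresholds used in the study, p under 0.01 before adjustment with a change of 1.5-fold or more, between trained and untrained mice in limma, a test across all genes, where 0.281% of all genes did (42, of which 22 were higher with training and 20 lower). No member had a Benjamini-Hochberg adjusted p under 0.05 in limma either, and neither did any other gene (0% called). At an unadjusted p under 0.05 in limma, 1 of the 8 members was called, Cacna2d4, against 8.34% of all genes. With sex as a covariate 2 of the 8 were, Cacna2d4 and Cacna2d1 (unadjusted p = 0.025 and 0.033 in limma), against 12.8% of all genes. With the number range as a covariate instead, Cacna2d1 was not called (unadjusted p = 0.028 for Cacna2d4 and 0.13 for Cacna2d1 in limma). The trained libraries lay apart from the untrained ones for 1 of the 8, again Cacna2d4, against 0.763% of all genes. The median difference of log2(FPKM + 0.1) over all genes was -0.0029. By contrast 6 of the 7 immediate early genes named in the study, rapid markers of neuronal activity, passed the study's thresholds. The study chose them on these samples, so they are given only as a scale. Fos had 57.4 ± 13.7 FPKM in trained mice, against 26.1 ± 9.98 FPKM in untrained ones (difference 1.20 on the log2 scale, limma adjusted p = 0.334).

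**Figure D2:**
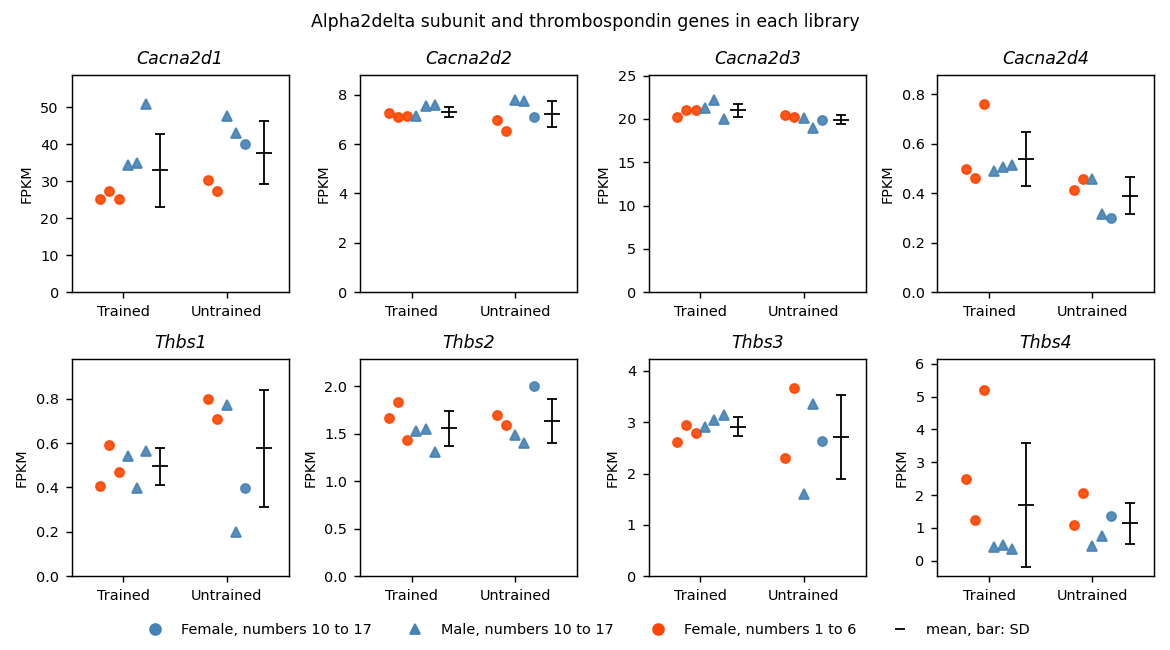
FPKM of each gene in each library, trained left and untrained right in every panel, circles for females and triangles for males. Points are blue for libraries 10 to 17 and orange-red for 1 to 6, and the black mark is the mean with its SD. The groups overlap in 7 panels, and Cacna2d4 is the panel in which every trained library lies above every untrained one.

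Cacna2d1, the thrombospondin and gabapentin receptor gene, had 25.1, 27.3 and 25.1 FPKM in the trained females 1, 2 and 3 and 34.4, 34.9 and 50.9 FPKM in the trained males 12, 13 and 14. Untrained females 5, 6 and 17 had 30.4, 27.4 and 40.0 FPKM, and untrained males 10 and 16 had 47.6 and 43.1 FPKM. Over both sexes the groups overlapped almost wholly, with the highest of all values in a trained male. Among females alone the trained (25.1 to 27.3 FPKM) all lay below the untrained (27.4 to 40.0 FPKM). The closest of these values nearly met, and the share of all genes with such a pattern was not counted. Within the sexes the log2 difference was -0.32 in females and -0.20 in males (limma adjusted p = 0.502 and 0.857). The mean was 32.9 ± 9.84 FPKM in trained (n = 6) and 37.7 ± 8.53 FPKM in untrained mice (n = 5). The log2 difference was -0.21 (SE 0.187, 95% CI -0.61 to 0.19, limma adjusted p = 0.745; exact permutation test, two-sided, p = 0.36). The interval excludes a rise of 1.5-fold in trained mice but not a fall of that size. The size of the difference rested on single libraries: it was -0.34 without Trained 14, -0.12 without Untrained 10 and -0.013 without Untrained 10 and 16 (limma adjusted p = 0.301, 0.901 and 0.997). With sex as a covariate it was -0.27 (SE 0.112, 95% CI -0.51 to -0.02; limma adjusted p = 0.368). With the number range as a covariate instead it was -0.15 (limma unadjusted p = 0.13, adjusted p = 0.573). The spread was larger than counting error: at a median of 8799 fragments per trained library counting alone gives a coefficient of variation of 1.095%, against 29.9% observed.

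Cacna2d3 lay in a narrow band, 20.3, 21.03, 21.1, 21.3, 22.2 and 20.0 FPKM in Trained 1, 2, 3, 12, 13 and 14, against 20.5, 20.2, 20.1, 19.0 and 19.9 FPKM in Untrained 5, 6, 10, 16 and 17. In 26 of the 30 pairs of a trained and an untrained library the trained one was higher, though the groups overlapped. The means were 20.98 ± 0.780 FPKM in trained mice and 19.9 ± 0.561 FPKM in untrained ones, a log2 difference of 0.07 (SE 0.0456, 95% CI -0.02 to 0.17; limma unadjusted p = 0.13, adjusted p = 0.649). The exact permutation test (two-sided) gave p = 0.032, not adjusted for the 8 genes, and the share of all genes reaching it was not counted. Both ends of the interval lie far inside 1.5-fold. Cacna2d2 also varied little, 7.25, 7.11, 7.13, 7.14, 7.56 and 7.57 FPKM in the trained libraries in the same order and 6.98, 6.54, 7.78, 7.75 and 7.09 FPKM in the untrained ones. Its coefficient of variation in untrained mice was 7.35%, against 2.82% for Cacna2d3. The log2 difference of Cacna2d2 was 0.02 (SE 0.0623, 95% CI -0.12 to 0.15, limma adjusted p = 0.961, exact permutation p = 0.80).

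Cacna2d4, the retinal subunit, was low but separated the groups. Trained 1, 2, 3, 12, 13 and 14 had 0.499, 0.464, 0.760, 0.489, 0.507 and 0.514 FPKM, and Untrained 5, 6, 10, 16 and 17 had 0.415, 0.460, 0.460, 0.318 and 0.302 FPKM. Every trained library was above every untrained one, but the closest values, 0.464 in Trained 2 and 0.460 in Untrained 6 and 10, nearly met. The means were 0.539 ± 0.110 FPKM in trained (n = 6) and 0.391 ± 0.0763 FPKM in untrained mice (n = 5). That is a log2 difference of 0.38 (SE 0.150, 95% CI 0.06 to 0.70), or 1.30-fold on the scale of FPKM + 0.1. The limma adjusted p was 0.568, and the exact permutation test (two-sided) gave p = 0.0022, the smallest this test can give with 6 and 5 libraries. The difference was 0.29 without Trained 3, 0.32 without Untrained 16 and 0.31 without Untrained 17, and in each of these 3 fits the unadjusted p was no longer under 0.05 (limma adjusted p = 0.821, 0.728 and 0.824). These values rest on 86.3 to 163 fragments per trained library and 40.8 to 113 per untrained library, for which counting alone gives a coefficient of variation of 9.73% in trained and 12.2% in untrained mice, smaller than the 20.4% in trained and 19.5% in untrained mice observed.

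Among the ligands, Thbs1 had 0.407, 0.591, 0.471, 0.542, 0.398 and 0.563 FPKM in Trained 1, 2, 3, 12, 13 and 14, inside the span of 0.799, 0.709, 0.772, 0.200 and 0.399 FPKM in Untrained 5, 6, 10, 16 and 17. The untrained values fell apart into 3 high and 2 low libraries, and their coefficient of variation of 45.9% was larger than the 14.3% that counting gives. The log2 difference was -0.08 (SE 0.257, 95% CI -0.63 to 0.47; limma adjusted p = 0.946; exact permutation p = 0.80). The interval excludes a rise of 1.5-fold but not a fall of that size, at 23.0 to 112 fragments per library.

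Thbs2 had 1.66, 1.83, 1.44, 1.53, 1.55 and 1.31 FPKM in the trained libraries and 1.69, 1.59, 1.49, 1.40 and 2.0 FPKM in the untrained ones, in the same order. The groups overlapped (log2 difference -0.06, SE 0.113, 95% CI -0.31 to 0.18; limma adjusted p = 0.879; exact permutation p = 0.54). Thbs3, the most expressed ligand, had 2.62, 2.94, 2.78, 2.91, 3.04 and 3.15 FPKM in trained libraries, all within the wider span of 2.31, 3.66, 1.59, 3.34 and 2.64 FPKM in untrained ones. The untrained coefficient of variation was 30.5%, against 6.63% from counting and 6.41% observed among trained mice. Its log2 difference was 0.15 (SE 0.168, 95% CI -0.21 to 0.51; limma adjusted p = 0.796; exact permutation p = 0.51).

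Thbs4 spanned the widest range of the 8 genes, 14.1-fold among trained libraries. Trained females 1, 2 and 3 had 2.50, 1.23 and 5.20 FPKM and trained males 12, 13 and 14 had 0.411, 0.480 and 0.369 FPKM, while untrained females 5, 6 and 17 had 1.09, 2.06 and 1.38 FPKM and untrained males 10 and 16 had 0.450 and 0.741 FPKM. Every female was above every male in both groups. The log2 difference between trained and untrained mice was 0.06 with a wide interval (SE 0.592, 95% CI -1.21 to 1.34; limma adjusted p = 0.984; exact permutation p = 0.92), and it was -0.37 without Trained 3. The interval holds 1.5-fold in both directions.

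**Figure D3:**
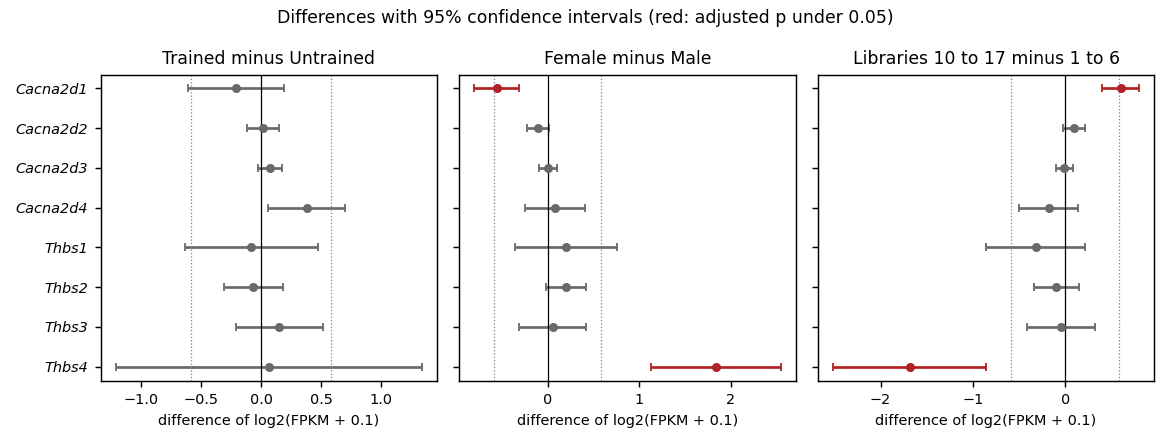
Difference of log2(FPKM + 0.1) with its 95% confidence interval for each gene in 3 comparisons: Trained minus Untrained, Female minus Male, and libraries 10 to 17 minus 1 to 6 (the last 2 with training as a covariate); dotted lines mark 1.5-fold and red an adjusted p under 0.05. Training gives no red point, while Cacna2d1 and Thbs4 are red in both of the other comparisons, in opposite directions.

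Between the sexes Cacna2d1 and Thbs4 passed the test across all genes: 2 of the 8 had an adjusted p under 0.05 in limma with training as a covariate, against 2.13% of all genes. Thbs4 was higher in females, 2.24 ± 1.55 FPKM (n = 6), against 0.490 ± 0.146 FPKM in males (n = 5). The log2 difference was 1.84 (SE 0.328, limma adjusted p = 0.0240). Its females (1.09 to 5.20 FPKM) and males (0.369 to 0.741 FPKM) did not overlap, which held for 1 of the 8 members and for 2.53% of all genes (exact permutation test, two-sided, p = 0.0022). Cacna2d1 was lower in females, 29.2 ± 5.62 FPKM, against 42.2 ± 7.39 FPKM in males. The log2 difference was -0.56 (SE 0.112, limma adjusted p = 0.0360; exact permutation p = 0.015). Cacna2d2 and Thbs2 did not pass in limma (log2 differences -0.11 and 0.20, adjusted p = 0.284 and 0.257). Their exact permutation p, not adjusted for the 8 genes, was 0.0043 for Cacna2d2, with the female higher in 1 of 30 pairs, and 0.028 for Thbs2, with the female higher in 27 of 30. Leaving out 1 library took the limma adjusted p past 0.05 for Cacna2d1 without Trained 1, 2, 3, 12, 13 or 14 or Untrained 5, 6 or 16 (0.0536 to 0.102), and for Thbs4 without Trained 1, 12, 13 or 14 or Untrained 6 (0.0553 to 0.0762). With the number range as a further covariate, an alternative chosen after seeing the data, the differences were 1.45 for Thbs4 and -0.17 for Cacna2d1 (limma adjusted p = 0.998 for both).

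Between the number ranges the same 2 of the 8 members passed, where 9.51% of all genes did in limma with training as a covariate. Cacna2d1 was higher in libraries 10 to 17, 41.8 ± 6.67 FPKM (n = 6), than in libraries 1 to 6, 27.0 ± 2.18 FPKM (n = 5). The log2 difference was 0.60 (SE 0.0923, limma adjusted p = 0.00402). The ranges of 34.4 to 50.9 FPKM and 25.1 to 30.4 FPKM did not overlap (exact permutation test, two-sided, p = 0.0022), as was so for 1 of the 8 members and 7.16% of all genes. Thbs4 was lower in libraries 10 to 17, 0.638 ± 0.386 FPKM, than in libraries 1 to 6, 2.42 ± 1.66 FPKM. The log2 difference was -1.69 (SE 0.384, limma adjusted p = 0.0182, and 0.0510 and 0.0570 without Trained 1 and without Untrained 6). Untrained 17, the female with a high number, had the Cacna2d1 level of the high-numbered males (40.0 FPKM) and the Thbs4 level of the females (1.38 FPKM). That is 1 library, and sex and number range cannot otherwise be told apart. With sex as a further covariate, also chosen after seeing the data, the range differences were 0.46 for Cacna2d1 and -0.45 for Thbs4 (limma adjusted p = 0.464 and 0.833).

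Within the number ranges Cacna2d1 was at 40.1 ± 9.35 FPKM in the trained mice of libraries 10 to 17 and 43.5 ± 3.83 FPKM in the untrained ones (n = 3 each). It was at 25.8 ± 1.27 FPKM in the trained mice of libraries 1 to 6 (n = 3) and 28.9 ± 2.08 FPKM in the untrained ones (n = 2). The log2 differences of -0.14 in libraries 10 to 17 and -0.16 in 1 to 6 had the sign of the pooled value, and neither had an adjusted p under 0.05 in limma (0.818 and 0.731). Cacna2d4 kept its sign too, at 0.41 in libraries 10 to 17 and 0.30 in 1 to 6 (limma adjusted p = 0.693 and 0.791). Thbs4 and Thbs1 turned round between the ranges: Thbs4 differed by -0.77 in libraries 10 to 17 and 0.72 in 1 to 6, and Thbs1 by 0.23 in libraries 10 to 17 and -0.54 in 1 to 6. The test of that turn itself, an interaction of training and number range added after seeing the data, gave -1.49 for Thbs4 and 0.78 for Thbs1 (limma adjusted p = 0.998 for both). In libraries 10 to 17 the trained mice are all male and the untrained ones include the female Untrained 17, so training and sex cannot be told apart there. Among males alone the Thbs4 difference was -0.39. For training by sex the Thbs4 interaction was 1.15 (limma adjusted p = 0.959), and no member's interaction with sex had an adjusted p under 0.05.

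Other measures moved with the 2 ranges, and their part in the results on Cacna2d1 and Thbs4 was not tested. Genes with at least 10000 bp of exons, as Cacna2d1 has, were higher in libraries 10 to 17 in 83.0% of 1391 cases (median log2 difference 0.17), against 49.4% of all genes (median -0.0027). Genes under 2000 bp were higher in 31.5%. Markers of layer 2/3 neurons, cells in which Cacna2d1 is known to be abundant, summed to 193 to 242 FPKM in libraries 10 to 17 and 169 to 208 FPKM in 1 to 6, with 5 of 5 higher and none at 0. By sex these sums did not overlap, at 169 to 208 FPKM in females and 224 to 242 FPKM in males. Untrained 17 was at 193 FPKM, within the range of the females, unlike its Cacna2d1 level. Oligodendrocyte markers (Mbp, Mog, Mag and Mobp) summed to 147 to 240.3 FPKM in libraries 10 to 17 and 274 to 579 FPKM in 1 to 6. They summed to 240.3 to 579 FPKM in females and 147 to 179 FPKM in males. All 4 were lower in libraries 10 to 17 at an unadjusted p under 0.05 in limma, as were 1740 of all 14936 genes, and none was at 0.

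The genes whose levels ran most like those of a member over the 11 libraries, by Pearson's r of log2(FPKM + 0.1) among the 12808 genes averaging 1 FPKM or more, are given as a description. All points share libraries, depth and the split in numbers. Cacna2d1 ran with Grm5, a metabotropic glutamate receptor gene (r = 0.990), Yod1, a deubiquitinase gene (r = 0.986), and Slitrk4, a synaptic adhesion gene (r = 0.985). Grm5 was at 27.0 to 34.2 FPKM in libraries 10 to 17 and 19.8 to 23.8 FPKM in 1 to 6, apart as Cacna2d1 was. Thbs4 ran with Plxnb3, a semaphorin receptor gene (r = 0.988), Mal, a gene of the myelin membrane (r = 0.987), and Anln, which encodes an actin-binding protein (r = 0.985). Mal was at 38.1 to 84.5 FPKM in females and 24.5 to 32.8 FPKM in males, highest in Trained 3 as Thbs4 was. Cacna2d4 ran with Gtf2ird1, a transcription factor gene (r = 0.958), Sik1, a salt-inducible kinase gene (r = 0.949), and Rasl11b, a small GTPase gene (r = 0.935). Sik1 was at 7.80 to 13.7 FPKM in trained and 3.61 to 7.96 FPKM in untrained libraries. Spearman's rank correlation with Cacna2d4 was 0.755 for Gtf2ird1 and Rasl11b and 0.918 for Sik1. Each of them was highest in Trained 3, as Cacna2d4 was, and r without that library was not computed.

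**Figure D4:**
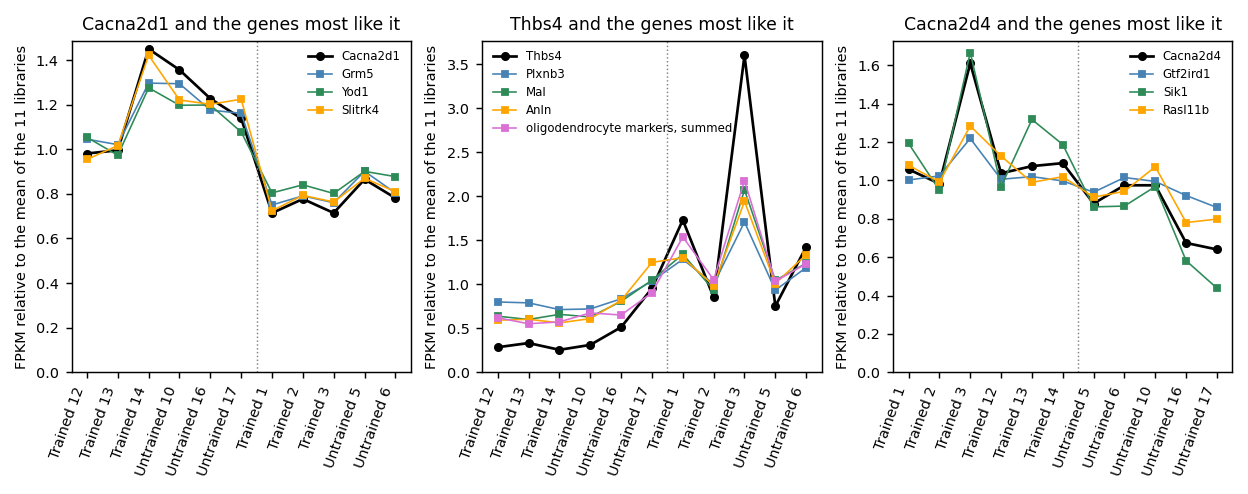
FPKM relative to the mean of the 11 libraries for Cacna2d1, Thbs4 and Cacna2d4 (black) and the 3 genes most like each, with the summed oligodendrocyte markers beside Thbs4. Libraries 10 to 17 stand left of 1 to 6 in the first 2 panels and trained left of untrained in the last; Cacna2d1 steps with its companions at the dotted line, and Thbs4 peaks with its companions in Trained 3.

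Cacna2d3 ran with Gpn1 (r = 0.955), Pfdn6 (r = 0.925), a prefoldin gene, and Nagk (r = 0.919), a sugar kinase gene. Cacna2d2 ran with AF357426 (r = 0.903), Cacna1a (r = 0.880), which encodes the pore of P/Q-type calcium channels, and Ddx19b (r = 0.880), an RNA helicase gene. Thbs3 ran with Gcdh (r = 0.966), Rnf112 (r = 0.963) and Lrrc45 (r = 0.957). Thbs1 ran with Stk11, Hey1 and Klf3 (r = 0.838 to 0.880), and Thbs2 with Ehd1, Tnfaip8l1 and Sec23b (r = 0.870 to 0.881).

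Lists of genes around the 2 families, given below, held 45 tested genes, each counted once. They include relatives, astrocyte-secreted regulators and excitatory synapse markers besides binding partners. Of the 45, 1 had an unadjusted p under 0.05 between trained and untrained mice in limma (2.22%, against 8.34% of all genes). Of 9 calcium channel pore and beta subunit genes 2 were higher with training, 7 lower, and none had an unadjusted p under 0.05 in limma (median log2 difference -0.02). Cacnb3, a beta subunit gene, was at 98.2 ± 5.50 FPKM in trained mice, against 98.3 ± 5.96 FPKM in untrained ones. Of 7 other proteins known to bind alpha2delta subunits, among them NMDA receptor subunits and neurexin, 2 were higher and 5 lower, and none passed (median -0.01). Prnp, the prion protein gene and the most expressed of them, was at 251 ± 6.36 FPKM in trained mice, against 268 ± 27.2 FPKM in untrained ones.

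Of 9 genes on the route through the small GTPase Rac1 to dendritic spines 5 were higher and 4 lower, and none passed (median 0.01). Cfl1, the cofilin gene, was at 353 ± 19.2 FPKM in trained mice, against 357 ± 63.9 FPKM in untrained ones. Of 10 genes for other thrombospondin receptors 9 were measured above the filter (Cd36 was not tested). Of these 3 were higher and 6 lower, and 1 passed the unadjusted p under 0.05. It was Lrp8, an apolipoprotein E and reelin receptor gene, at 11.7 ± 0.768 FPKM in trained mice, against 13.4 ± 1.25 FPKM in untrained ones (log2 difference -0.20, SE 0.0713; limma adjusted p = 0.551). The median of the 9 was -0.07.

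Of 7 other synapse regulators that astrocytes secrete 1 was higher and 6 lower, and none passed (median -0.09). Sparcl1, the hevin gene, was at 647 ± 37.4 FPKM in trained mice, against 670 ± 86.0 FPKM in untrained ones. The relatives of the 2 families, Cachd1, an alpha2delta-like gene, and Comp, the remaining thrombospondin, had log2 differences of -0.10 and -0.14 and did not pass. The 3 excitatory synapse marker genes, Slc17a7, Slc17a6 and Dlg4, did not pass either (median -0.09). Slc17a7, a vesicular glutamate transporter gene, was at 740 ± 26.8 FPKM in trained mice, against 731 ± 21.1 FPKM in untrained ones.

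**Figure D5:**
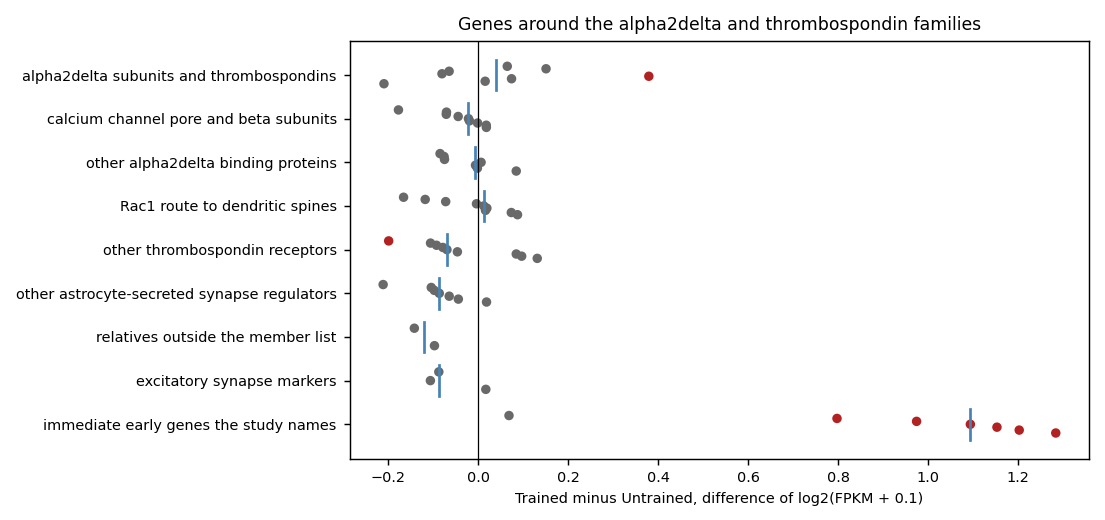
Trained minus Untrained difference of log2(FPKM + 0.1) for the 8 genes (top line) and each list around them, 1 point per gene, red for an unadjusted limma p under 0.05, with the blue bar at the list's median. Cacna2d4 and Lrp8 are the red points above the bottom line, where 6 of the 7 immediate early genes are red.

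Between the number ranges most channel subunits and binding partners were higher on the side on which Cacna2d1 was. Of the 9 channel subunit genes 7 were higher in libraries 10 to 17 at an unadjusted p under 0.05 in limma (median 0.29). Of the 7 binding proteins 5 were (median 0.37). Over all genes 2288 of 14936 were. Grin2b, an NMDA receptor subunit gene, was at 10.6 to 26.5 FPKM in libraries 10 to 17 and 5.69 to 10.4 FPKM in 1 to 6 (log2 difference 1.43). Cacna1e, the pore of R-type channels, was at 22.8 to 32.6 FPKM in libraries 10 to 17 and 14.6 to 21.4 FPKM in 1 to 6 (0.74). Cacna2d3 and Cacna2d2, with exons of 8720 and 7947 bp, differed by -0.01 and 0.10 between the same ranges (limma adjusted p = 0.925 and 0.282). Genes with 5000 to 10000 bp of exons, as both have, were higher in libraries 10 to 17 in 59.6% of 4754 cases (median log2 difference 0.034). The part of exon length in these differences was not tested.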

How the data were processed

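Stranded mRNA libraries of the ACC were sequenced, trimmed (Trimmomatic 0.38), aligned to mm10 (Bowtie2 2.3.5.1) and counted (featureCounts, Subread 1.6.3) by the authors, who removed 1 untrained male and deposited FPKM per gene and library. No source used here says how counts became FPKM. Their edgeR 3.30.3 table of fold changes and p-values was not used. FPKM are not counts, so log2(FPKM + 0.1) was fitted for 14936 genes (mean over libraries 0.1 FPKM or more) with limma 3.58.1 (trend) in R 4.3.3, with Benjamini-Hochberg adjustment over all genes, and single genes were compared with exact permutation tests over 462 splits. Python 3.11.15, numpy 2.4.6, pandas 2.3.3, scipy 1.17.1 and matplotlib 3.10.9 were used for the rest. The fit was tested on simulated data.

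The members, lists and tests were chosen with earlier results of these data known. The text names all 8 members, of each list the genes with an unadjusted p under 0.05 or else the one with the highest mean, the 3 genes most like each member, and markers set beside a result. One cell type marker is not reported here. In lists, Fos, Grin2b, Cacna1e, Slc17a6 and Dlg4 were named after their values were seen. Alternatives were other pseudocounts, filters, normalizations, covariates, variance models and sets of libraries. Each library is 1 mouse. Counting errors given cover counting only and rest on the estimated depth.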

Additional observations from a re-analysis of the deposited data

Results flagged for a closer look

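Trained and untrained values of the 8 genes and of the family sums, 20 sets, were tested for a library far from the others. Chance would flag about 1 if the sets were independent, which the sums and their members are not. The test found 1: Cacna2d4 in Trained 3, at 0.760 FPKM, when the other trained libraries were at 0.464 to 0.514 FPKM. Cacna2d2 moved in opposite directions in the sexes: the trained females (7.11 to 7.25 FPKM) were all above the untrained females (6.54 to 7.09 FPKM), while the trained males (7.14 to 7.57 FPKM) were all below the untrained males (7.75 and 7.78 FPKM). The test of that difference, the interaction of sex and training in limma, gave 0.12 on the log2 scale (adjusted p = 0.959). The share of all genes with such a pattern was not counted. There were 3 trained and 3 untrained females, and 3 trained and 2 untrained males. The closest female values, 7.11 and 7.09 FPKM, nearly met.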

How the results depend on the processing

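No paired analysis was possible because no library number is shared between the groups. No alternative brought a member to an adjusted p under 0.05 for Trained minus Untrained, and Cacna2d1, Cacna2d3 and Cacna2d4 kept their sign under each one run. The size moved: Cacna2d1 was at -0.013 without Untrained 10 and 16, and Cacna2d4 at 0.14 with log2(FPKM + 1), a pseudocount above its level. Cacna2d4 and Thbs1 have no value with a mean of at least 1 FPKM. The sign turned for Thbs4 with the number range as a covariate (-0.10), without Untrained 10 and 16 (-0.41), in libraries 10 to 17 (-0.77) and in males (-0.39); for Thbs3 in libraries 1 to 6 (-0.065) and in females (-0.020); for Cacna2d2 in libraries 10 to 17 (-0.022) and in males (-0.065); for Thbs1 in libraries 10 to 17 (0.23) and in males (0.22); and for Thbs2 in males (0.018). The cause was not tested. With each library left out in turn, the differences ran from -0.34 to -0.12 for Cacna2d1, 0.29 to 0.43 for Cacna2d4, -0.37 to 0.33 for Thbs4, -0.019 to 0.27 for Thbs3, -0.020 to 0.042 for Cacna2d2, -0.35 to 0.051 for Thbs1 and -0.12 to 0.0069 for Thbs2.

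Genes past the study's thresholds numbered 12 higher and 0 lower with log2(FPKM + 1), 6 lower with a mean of at least 1 FPKM, 13 lower with array weights, 11 lower without Untrained 10 and 16, 13 lower in libraries 1 to 6, 47 higher and 40 lower in libraries 10 to 17, and 59 higher and 42 lower in males. Leaving out 1 library gave 16 to 35 higher and 11 to 35 lower: 11 lower without Trained 13, 35 lower without Untrained 5, 35 higher without Untrained 6 and 34 higher without Untrained 10.

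For Female minus Male the range over libraries left out was -0.63 to -0.46 for Cacna2d1, 1.52 to 2.07 for Thbs4, -0.021 to 0.16 for Cacna2d4, -0.014 to 0.029 for Cacna2d3, -0.16 to 0.18 for Thbs3 and -0.11 to 0.40 for Thbs1. With the number range as a covariate it was -0.17 for Cacna2d1, 1.45 for Thbs4, -0.27 for Cacna2d4 and -0.27 for Thbs1. For libraries 10 to 17 minus 1 to 6 the range was -1.996 to -1.35 for Thbs4, -0.030 to 0.0072 for Cacna2d3 and -0.12 to 0.10 for Thbs3; with sex as a covariate it was 0.46 for Cacna2d1, -0.45 for Thbs4 and 0.28 for Thbs2. Both covariates were chosen after seeing the data. Depth limits Cacna2d4, Thbs1 and Thbs4, which rest on 21.5 to 387 fragments per library.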
